A study of Mus musculus with 12 samples.

Results

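Pituitary tumors of heterozygous POMC knockout (KO) mice were compared with normal mouse pituitary on 10 of the 12 Affymetrix mouse expression arrays of the series. The 8 tumor arrays were labelled as heterozygous KO of the POMC gene and numbered 1 to 8, and the 2 normal arrays were labelled normal pituitary. The other 2 arrays, of homozygous POMC KO tumors, were not in the comparison. On these arrays, biotin-labelled copies of total RNA bind to sets of short probes, and the authors' normalized values are on the log2 scale, so that a difference of 1 is a 2-fold change. All mice were untreated. Their age, sex and strain are not given in the sources used here. The heterozygous mice carry 1 intact and 1 disrupted Pomc allele in every cell from the germline, and their tumors arise spontaneously. The reference in the study's methods is normal pituitary that was pooled. Whether each normal array here holds a pool or 1 gland is not known.

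Pro-opiomelanocortin, the product of Pomc, is cut into adrenocorticotropic hormone in the corticotrophs of the anterior lobe and into melanocyte-stimulating hormone and endorphin in the melanotrophs of the intermediate lobe. Melanotrophs carry the dopamine D2 receptor (D2R) and are held in check by dopamine from the hypothalamus. The other hormone cells of the anterior lobe are somatotrophs, lactotrophs, thyrotrophs and gonadotrophs, and a normal gland also holds glial pituicytes, axons from the hypothalamus, vessels and resident macrophages. A tumor dissected from such a gland can contain any of these. In bulk RNA, fewer cells of a type and less RNA per cell cannot be told apart.

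Neighbouring tumor arrays were near duplicates (1 and 2, 3 and 4, 5 and 6, 7 and 8). The 2 arrays of such a pair correlated at 0.997 over all probes, with a difference over 2-fold at no more than 2 probes, whereas arrays of different pairs correlated at 0.964 to 0.983 and differed at 362 to 813 probes. The normal arrays correlated at 0.985 with each other and differed at 241 probes. Each pair was averaged and counted as 1 tumor, which gave 4 tumors, named here 1-2, 3-4, 5-6 and 7-8, and 2 normal samples. The pairing was read from the values. It conflicts with the series' description, which counts 8 heterozygous mice, and no label ties 2 arrays to 1 mouse. With the 10 arrays taken as separate samples 2197 probes were called, against 2120 with the pairs averaged. The p-values measure the spread between these samples, which may be technical. Where 4 tumor values follow each other below, they are in this order, followed by normal 1 and normal 2. The labels give no sex. Xist, the RNA of the inactive X chromosome, was at 4.58, 10.93, 5.0 and 11.25 in the tumors and at 5.07 and 4.57 in the normal samples. The Y-linked gene Eif2s3y was low in the tumors in which Xist was high, at 3.62 and 3.37, and lay between 8.62 and 8.89 in the other samples. With Xist added to the model 2419 probes passed the thresholds, and with only the 2 low-Xist tumors 2398 passed, against 2120 in all 4.

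Tumors and normal pituitary differed at 2120 of 24385 tested probes (8.69%), 1204 higher in tumors (4.94%) and 916 lower (3.76%), with an adjusted p under 0.05 from limma and a change over 2-fold, and these are called below. Of the 12272 genes tested, 1237 (10.1%) were called, 684 higher in tumors (5.57%) and 553 lower (4.51%). A gene is represented by its brightest tested probe. The median log2 fold change over all tested genes was 0.00. In all 1237 called genes the 4 tumors lay on one side of both normal samples, as they did in 50.9% of all tested genes. Among the 455 called genes with several tested probes, 0 had a probe called in the opposite direction.

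Several of the largest increases were in genes known from macrophages and other myeloid cells. Of the 15 genes with the largest increases, Mmp12 (macrophage elastase), Ccl6 (a myeloid chemokine), Lyz2 (lysozyme), Clec4n (the lectin receptor Dectin-2), Marco (a scavenger receptor) and Arg1 (arginase) are known from such cells. Arg1 was at 9.58, 9.64, 9.16 and 8.07 in the tumors and at 4.59 and 4.65 in normal pituitary, higher by 4.49 on the log2 scale (standard error 0.41, adjusted p = 0.000674). Marco was at 8.22, 9.18, 7.26 and 6.48 against 4.03 and 4.04. Every tumor was above both normal samples, and tumor 7-8 was the lowest of the 4 in both genes. Marco rested on both normal samples, since its call was lost without either. F13a1, the A chain of coagulation factor XIII, rose by 4.12 and Hmox1, the heme oxygenase, by 3.63 on the log2 scale. Lyz1 rose by 4.07, but its sequence is close to that of Lyz2 and its probes may bind both.

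The 15 largest increases also held Ppp1r17, Fut9, Chodl, Serpina3n, Mcm6 and Htr2c. Ppp1r17, which encodes a protein phosphatase inhibitor of neurons, was at 11.01, 11.41, 10.08 and 11.21 in the tumors and at 6.12 and 6.37 in normal pituitary (log2 fold change 4.68, standard error 0.34, adjusted p = 0.000367). Fut9, which encodes a fucosyltransferase, was at 8.40, 8.72, 8.74 and 8.42 against 4.39 and 5.03, and all 3 of its probes were called. The tumors differed little among themselves in Fut9, with an SD of 0.19. Chodl, which encodes the lectin chondrolectin, rose by 3.89, and in tumor 5-6 it was at 7.00 against 8.15 to 8.29 in the other tumors. Serpina3n, a protease inhibitor gene, rose by 3.46.

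**Figure D1:**
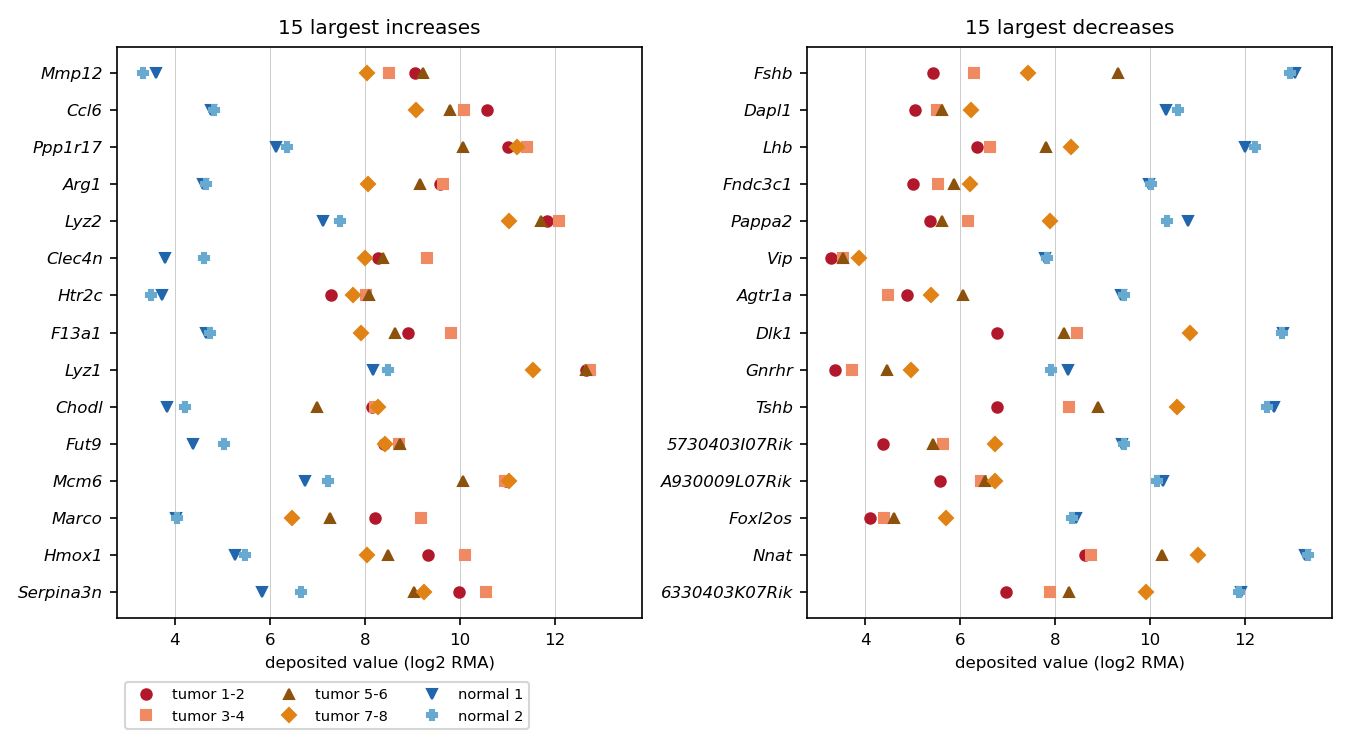
Deposited log2 values of the 15 genes with the largest increases (left) and the 15 with the largest decreases (right) in tumors, 1 row per gene and 1 symbol per sample, with each tumor averaged over its pair. Tumors and normal samples overlap in none of the 30 genes, which holds for every called gene and for 50.9% of all tested genes. Among the decreases tumor 7-8 often lies nearest to the normal samples, as in Dlk1 at 10.85 against 12.80 and 12.78.

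Of the 15 genes with the largest decreases, 3 encode hormone chains of the anterior lobe, which are Fshb, Lhb and Tshb. Fshb, the beta chain of follicle-stimulating hormone, was at 5.44, 6.29, 9.32 and 7.43 in the tumors and at 13.06 and 12.96 in normal pituitary, a difference of -5.89 on the log2 scale (standard error 0.93, adjusted p = 0.00507), or 59.1-fold lower. By analysis of variance without moderation, the test of the study's methods, Fshb was not called (adjusted p = 0.0634). Dapl1, named for its likeness to a death-associated protein, was at 5.05, 5.51, 5.62 and 6.22 against 10.34 and 10.59, 29.2-fold lower, the second largest decrease. Lhb, the beta chain of luteinizing hormone, was at 6.35, 6.63, 7.80 and 8.33 against 12.02 and 12.22, which is 28.6-fold lower. Fndc3c1, which encodes a protein with fibronectin type III domains, was at 5.0 to 6.20 in the tumors against 9.99 and 10.03, 20.5-fold lower. Tshb, the beta chain of thyroid-stimulating hormone, was at 6.78, 8.30, 8.91 and 10.57 against 12.61 and 12.47. The tumors were far apart in Fshb, Lhb and Tshb, with SDs of 1.68, 0.94 and 1.57, yet all lay below both normal samples. The call of Tshb was lost without either normal sample. The Fshb promoter is shown because this gene fell the most. The sequence is from RefSeq (GRCm38.p6, chr2:107059652-107059901, minus strand), reads 5′ to 3′ over the 250 bases before the start of transcription, and has in capitals a TATA box word at -30 and an inverted CCAAT word at -75, counted from the start.
Fshb: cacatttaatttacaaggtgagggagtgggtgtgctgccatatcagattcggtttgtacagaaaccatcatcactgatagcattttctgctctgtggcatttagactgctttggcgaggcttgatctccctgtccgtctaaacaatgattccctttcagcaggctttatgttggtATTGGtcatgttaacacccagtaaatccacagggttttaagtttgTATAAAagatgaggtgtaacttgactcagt

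Markers of gonadotrophs, thyrotrophs and somatotrophs were lower. Of 10 gonadotroph markers tested, 7 were lower and 0 higher (median log2 fold change -2.87, against 0.00 over all tested genes). Gnrhr, the receptor for gonadotropin-releasing hormone, was at 3.38, 3.72, 4.46 and 4.97 against 8.27 and 7.93. Gata2, a transcription factor of gonadotrophs and thyrotrophs, fell by 3.52 and Foxl2, another, fell by 2.60, with an SD of 0.28 and 0.26 among tumors. Of 7 thyrotroph markers, 5 were lower (median -2.60), and 3 without either normal sample. Trhr, the receptor for thyrotropin-releasing hormone, fell by 3.27, and its tumor values of 3.11 to 3.84 lay under the median of all values (5.73), where the size of a change is not exact.

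Of 7 somatotroph markers, 4 were lower and 0 higher (median -3.13). Pappa2, which encodes a protease that frees insulin-like growth factor from its binding proteins, was at 5.37, 6.17, 5.62 and 7.90 against 10.80 and 10.35. Ghrhr, the receptor for growth hormone-releasing hormone, was at 5.66, 6.17, 6.40 and 7.96 against 9.63 and 9.72. Tumor 7-8 was nearest to normal pituitary in both. Gh itself, growth hormone, was at 13.32, 14.30, 14.25 and 14.78 against 14.86 and 14.86 and was not called (log2 fold change -0.70, adjusted p = 0.195). Without either normal sample 1 gene of this list was called lower, since Ghrhr, Dlk1 and Nnat lost their call, and by analysis of variance without moderation 0 were, since Pappa2 lost its call too (adjusted p = 0.0572). Of 6 lactotroph markers, 2 were lower and 1 higher. Esr1, the estrogen receptor, fell by 1.94 and Tmem163 rose by 1.26, and both calls were lost without either normal sample, that of Tmem163 also without any tumor but 7-8, in even arrays and with no filter on low values. Prl, prolactin, was at 14.20, 14.81, 13.91 and 14.94 against 14.72 and 14.72 and was not called. Gh and Prl lie near the top of the scale of these arrays (highest values 15.08 to 15.31), where differences are compressed, so that little can be read from their size.

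Genes of the Pomc lineage did not move together. Pomc was at 15.28, 15.30, 15.27 and 15.15 in the tumors and at 15.08 and 15.11 in normal pituitary (log2 fold change 0.16, standard error 0.11, adjusted p = 0.330), which is near the top of the scale of these arrays, whose highest values were 15.08 to 15.31. Of 7 melanotroph markers tested, 3 were higher and 0 lower, with and without each sample. Pax7, the transcription factor that sets melanotroph identity, was at 11.47, 11.28, 11.18 and 10.84 against 9.92 and 9.50, a rise of 1.48 on the log2 scale (standard error 0.20, adjusted p = 0.00260). Pkib, which encodes an inhibitor of protein kinase A, rose by 1.71, and Esm1, also a gene of endothelial cells, by 1.29. Of 7 corticotroph markers, 0 were higher and 4 lower. Neurod1, a transcription factor of corticotrophs, was at 3.91, 3.93, 4.03 and 4.33 against 6.74 and 7.02. Crhr1, the receptor for corticotropin-releasing hormone, fell by 1.44, Nr3c1, the glucocorticoid receptor, by 2.38 and Nr4a1, a nuclear receptor induced by that hormone, by 1.69, a call lost without either normal sample. Tbx19, the transcription factor of both Pomc cell types, had a log2 fold change of 0.33 and was not called.

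In hormone cell markers, tumor 7-8 was mostly the nearest to normal pituitary and tumor 1-2 the farthest. Of the 19 genes called lower in the corticotroph, somatotroph, lactotroph, thyrotroph and gonadotroph lists, 18 were highest in tumor 7-8 and 14 were lowest in tumor 1-2. The mean level of the somatotroph list minus the normal mean was -3.13, -2.58, -2.43 and -1.35 on the log2 scale in tumors 1-2, 3-4, 5-6 and 7-8, and that of the thyrotroph list was -3.12, -2.79, -2.36 and -1.80. In the corticotroph list (-1.47, -1.26, -1.33 and -0.99) and the lactotroph list (-1.47, -1.11, -1.33 and -0.64) tumors 3-4 and 5-6 were the other way round. Across all 553 genes called lower, tumor 7-8 was highest in 327 and tumor 1-2 lowest in 303. Cga, the alpha chain shared by the glycoprotein hormones, followed the order of the somatotroph list, at 10.98, 12.19, 13.11 and 13.87 against 14.73 in normal pituitary, and was not called (adjusted p = 0.061). The melanotroph list ran the other way, at 0.97, 0.91, 0.83 and 0.75 above the normal mean. These levels are a description of 4 tumors, and how much normal gland was left in each sample was not tested.

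**Figure D2:**
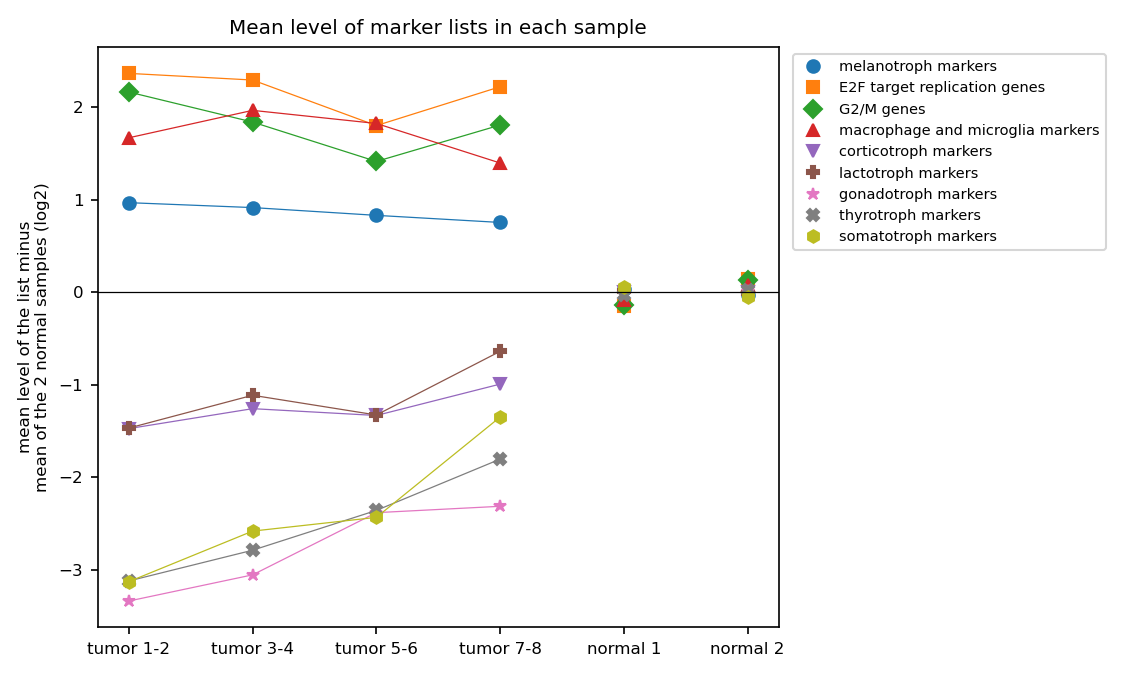
Mean log2 level of 9 marker lists in each tumor and normal sample, minus the mean of the 2 normal samples, with lines joining the 4 tumors of a list. Tumor 7-8 lies nearest to normal pituitary in the 5 lists of other hormone cells, for example at -1.35 for somatotroph markers against -3.13 in tumor 1-2, and tumor 5-6 is lowest in replication and G2/M genes.

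Genes of DNA replication and mitosis were higher in all 4 tumors. E2F factors drive genes of DNA replication before S phase, and genes of mitosis are switched on later, through CHR and CCAAT elements. Of 24 E2F target replication genes tested, 23 were called higher and 0 lower (median log2 fold change 2.13), and of 27 G2/M genes 24 were higher and 0 lower (median 1.99). Without 1 sample these counts were 21 to 23 and 20 to 25. Members under the median of all values (5.73) in both normal samples, such as Cdc6 and Cdc25c, could be tested through the tumors alone. They could hardly be called lower, so the counts of 0 lower are in part set by the filter. Mcm6, a subunit of the replicative helicase, was at 10.98, 10.95, 10.07 and 11.03 against 6.73 and 7.24, which is 13.7-fold higher (standard error 0.30 on the log2 scale, adjusted p = 0.000431). Cdt1, which loads that helicase, was at 10.75, 10.90, 10.31 and 10.57 against 7.31 and 7.34, and Cdc6, its partner, at 7.72, 7.85, 6.90 and 7.58 against 4.08 and 4.70. Mki67, the Ki-67 antigen of dividing cells, was at 10.19, 10.16, 9.13 and 9.99 against 7.09 and 7.35. Tumor 5-6 was the lowest of the 4 in each of these 4 genes. Over both lists together, 47 of 51 genes were called, and tumor 5-6 was lowest in 44 of the 47.

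The members not called by their brightest probe were Ccne1, a cyclin E (log2 fold change 0.39, adjusted p = 0.129, with its other probe called at 1.49), the transcription factor Foxm1 (0.01), and Plk1 and Cdc25c, which act at the entry to mitosis (0.95 and 0.71). Ccne2, the other cyclin E, rose by 3.06. Promoters of 20 replication genes and 21 G2/M genes were in the RefSeq table, and those of Mcm6 and Mki67 are shown because each holds the words of its group. Both are from GRCm38.p6, Mcm6 at chr1:128359706-128359955 and Mki67 at chr7:135716380-135716629, minus strand, and read 5′ to 3′ over the 250 bases before the start. Capitals mark E2F words (TTTGGCGC), CCAAT words or their inverse ATTGG, and CHR words (TTTGAA).
Mcm6: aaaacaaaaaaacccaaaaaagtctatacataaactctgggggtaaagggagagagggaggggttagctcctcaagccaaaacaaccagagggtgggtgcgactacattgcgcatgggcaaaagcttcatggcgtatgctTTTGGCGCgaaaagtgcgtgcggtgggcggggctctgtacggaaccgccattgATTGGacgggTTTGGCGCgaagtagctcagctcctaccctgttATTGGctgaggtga
Mki67: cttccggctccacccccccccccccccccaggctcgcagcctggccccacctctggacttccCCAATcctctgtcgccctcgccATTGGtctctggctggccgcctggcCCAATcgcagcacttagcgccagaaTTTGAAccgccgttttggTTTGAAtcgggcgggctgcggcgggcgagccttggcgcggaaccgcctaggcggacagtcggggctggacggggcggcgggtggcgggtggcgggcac

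In Mcm6 the E2F words begin at -110 and -47 and inverted CCAAT words at -57 and -14. In Mki67 the CHR words begin at -116 and -98, downstream of CCAAT words or their inverse at -188, -166 and -141. E2F words (TTTCCCGC or TTTGGCGC on either strand, from 250 bases before to 50 after the start) were in 9 of 20 replication promoters (45.0%) and 0 of 21 G2/M promoters. CHR words were in 2 of 20 and 14 of 21 (66.7%), and CCAAT words, bound by NF-Y, in 13 of 20 and 17 of 21 (81.0%). Over all genes called higher with a promoter, 8.52% held an E2F word and 23.7% a CHR word, against 2.98% and 11.9% of genes called lower and 3.46% and 13.7% of the 9901 tested genes with a promoter. In the whole table of 32851 promoters the shares were 1.56% and 17.9%. A TATAAA word was in 12.7% of promoters of genes called higher, 14.4% of those called lower and 8.95% of those tested. The ETS word CCGGAAGT was in 4.55%, 0.917% and 8.78%, the PU.1 word GAGGAAGT in 4.36%, 3.67% and 3.34%, and the CRE word TGACGTCA in 2.84%, 2.29% and 3.61%. The ETS and PU.1 words share the letters GGAAGT. The replication list was chosen as E2F targets, and G2/M genes are known for CHR and CCAAT elements, so the shares in these lists are no separate evidence. They are also rough, with 95% intervals of 25.8% to 65.8% for E2F words in replication genes and 45.4% to 82.8% for CHR words in G2/M genes. Called genes of both lists are also among all genes called higher. These are matches of letters, and binding was not measured.

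**Figure D3:**
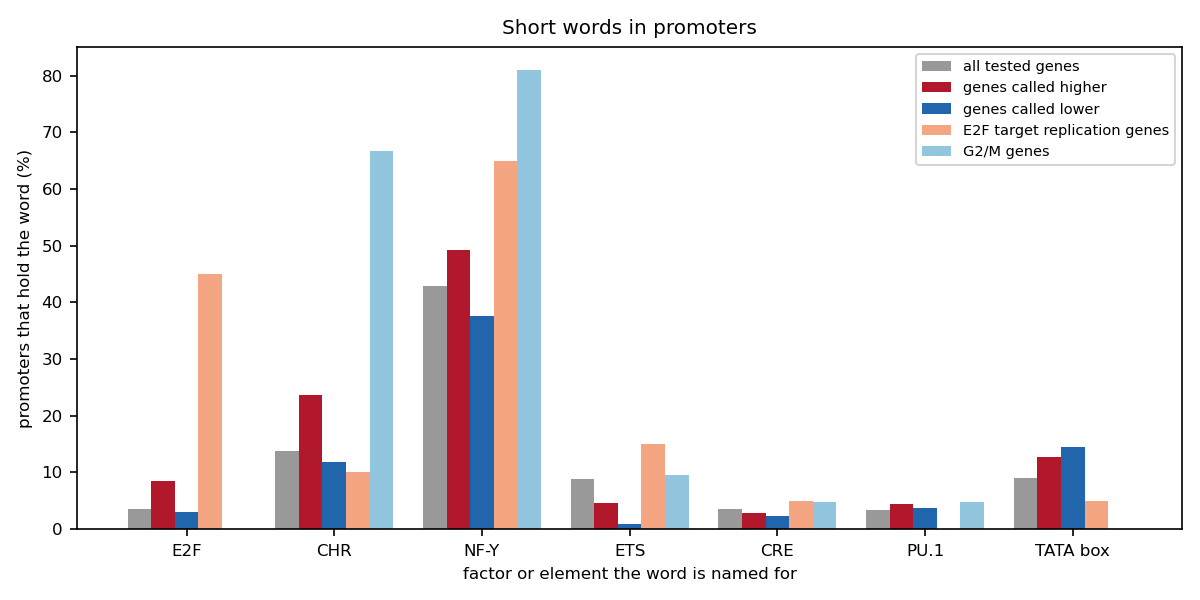
Percentage of promoters that hold each short word on either strand, for all tested genes, genes called higher and lower in tumors, and the replication and G2/M lists. E2F words were in 45.0% of replication promoters and CHR words in 66.7% of G2/M promoters. The replication list was itself chosen as E2F targets, and G2/M genes are known for CHR elements.

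Regulators of the cell cycle moved both ways. Ccnd2, a D cyclin, was at 8.11, 9.03, 8.88 and 10.12 against 12.62 and 12.52, 11.6-fold lower, and all 7 of its probes were called. Ccnd1 was 3.20-fold lower, at 8.12 to 8.44 in the tumors against 10.18 and 9.85. Among inhibitors of cyclin-dependent kinases, Cdkn2c (p18) was at 10.79, 10.67, 10.40 and 10.51 against 8.36 and 8.38, 4.67-fold higher. Cdkn1a (p21) was at 10.45, 10.74, 8.76 and 9.88 against 7.70 and 7.72, and its call was lost without either normal sample and in the low-Xist tumors alone. Of 14 genes tested, Ccnd1 and Ccnd2 fell and Cdkn1a, Cdkn2c and Cdkn2b (log2 fold change 1.03) rose, while Ccnd3 (-0.80) and Cdkn1b (p27, at 0.14) were not called. Cdkn2b lost its call in 8 of 21 alternatives. Among them were those without either normal sample or tumor 3-4, with Xist in the model and in the low-Xist tumors alone. In the list of p53 and Bcl2 genes, Bcl2l11 (the death gene Bim) rose by 1.13, Phlda3 by 1.10 and Gadd45a by 1.07, while Sesn1 fell by 1.22, of 14 tested. Without 1 of the normal samples 0 or 1 of the genes of this list were called higher. Gadd45a was also not called without any tumor but 7-8, nor Phlda3 without tumor 1-2 or 3-4 or with Xist in the model. Bcl2l11 was not called without tumor 3-4, nor Sesn1 without normal 2. Among enzymes of DNA methylation and Polycomb silencing, 3 of 17 were higher and 0 lower, with and without each sample. These were Hells, a chromatin remodeller (log2 fold change 3.36), Uhrf1, which guides Dnmt1 to replicated DNA (2.47), and Ezh2, the Polycomb methyltransferase (1.94), and all 3 were lowest in tumor 5-6, like the replication genes. Dnmt1 itself was at 0.85 by its brightest probe and not called, while its 2 other probes were called higher, at 1.85 and 1.62.

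Macrophage markers were higher, and most lymphocyte genes were too dim to be tested. Of 15 macrophage and microglia markers tested, 9 were higher and 0 lower (median 1.34), and 8 to 10 were without 1 sample. Cd68, a protein of macrophage lysosomes, was at 8.83, 9.27, 8.70 and 7.98 against 5.67 and 6.20, 6.79-fold higher. Mrc1, the mannose receptor, was at 7.61, 8.16, 7.23 and 6.61 against 5.33 and 5.53, and was not called without either normal sample. Of the 9 called markers, 8 were highest in tumor 3-4 and 7 lowest in tumor 7-8. The defining receptors Csf1r (log2 fold change 0.46) and Cx3cr1 (0.28) were not called. Of 14 chemokine ligands, Ccl6, Ccl9, Ccl8 and Ccl12 were higher and Cx3cl1 lower, the last not without normal 2. Ccl9 was at 7.79, 7.31, 7.22 and 6.60 against 4.74 and 5.28. Ccl8 was not called without either normal sample, without tumor 3-4 or 5-6, in even arrays, with no filter on low values or with Xist in the model, nor Ccl12 without normal 1. In the list of lymphocyte and granulocyte markers only 5 of 16 genes on the array were bright enough to be tested. Of these, Kit, a receptor of mast cells and progenitors, was at 9.92, 9.21, 9.05 and 8.40 against 6.68 and 6.82, and Jchain, the joining chain of plasma cell antibodies, rose by 1.87, a call lost without normal 1. Jchain passed the filter through the tumors alone, with normal values under the median of all values (5.73). The same held for Mrc1 and Mmp12 of the macrophage list and for the chemokine genes Ccl6, Ccl8 and Ccl9. A gene that enters this way can hardly be called lower.

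Genes of antigen presentation were mostly not called. Of 6 genes of MHC class II presentation, Ctss, a lysosomal protease also on the macrophage list, rose by 1.63, and the others had log2 fold changes of 0.45 to 0.74 and were not called. All 6 were positive (median 0.69), and Cd74, the invariant chain, at 0.74 with an adjusted p of 0.0190, missed the call on the fold limit. The mean level of the list was at least 0.69 above the normal mean in every tumor. Of 17 genes of the interferon response and MHC class I, 1 was called, Ifit2 (1.34), a share near the 5.57% of all tested genes. B2m, the light chain of class I, had a log2 fold change of -0.68 and was not called.

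Receptor genes for dopamine and somatostatin divided. These receptors were a subject of the study, since the drug it tests binds D2R and SSTR2. Of the list of 11 genes, 9 were on the array and 6 were bright enough to be tested. Drd2, which encodes D2R, was at 11.73, 10.97, 11.37 and 10.52 in the tumors and at 10.49 and 10.34 in normal pituitary (log2 fold change 0.74, standard error 0.31, adjusted p = 0.127). Every tumor lay above both normal samples, tumor 7-8 close to normal 1 and the others farther, and Drd2 was not called. Sstr1 was at 7.34, 6.64, 6.72 and 7.71 against 5.19 and 5.24, 3.69-fold higher (adjusted p = 0.00514). Sstr4 was at 7.29, 7.49, 8.11 and 7.76 against 5.87 and 6.34, 2.95-fold higher (adjusted p = 0.00467, not called without normal 1). By analysis of variance without moderation neither was called, Sstr1 with an adjusted p of 0.0587. Sstr5 was at 4.92, 4.72, 4.63 and 4.86 against 6.20 and 6.22, 2.68-fold lower (adjusted p = 0.000545). Sstr2 was at 5.61, 5.45, 6.03 and 4.95 against 6.73 and 6.65, 2.27-fold lower (adjusted p = 0.0197), and lost its call without either normal sample, without tumor 7-8, with Xist in the model and in the low-Xist tumors alone. Sstr3 was 1.96-fold lower with an adjusted p of 0.00317, just under the 2-fold limit, and 1 of its 2 probes was called, with a log2 fold change of -2.16. The tumor values of Sstr2, Sstr3 and Sstr5 lay near or under the median of all values, where differences are compressed and folds are rough.

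Other receptors for hypothalamic signals were called in both directions. Of 9 peptide and amine hormone receptors tested, Ghrhr, Trhr, Gnrhr, Crhr1 and Adcyap1r1 (the receptor for pituitary adenylate cyclase-activating peptide) were lower and Htr2c, a serotonin receptor, higher. Htr2c was at 7.28, 8.03, 8.08 and 7.74 against 3.74 and 3.49, 18.0-fold higher, from a normal level under the median. Adcyap1r1 fell by 2.03 on 1 of 2 probes, with the other at -0.17. Agtr1a, an angiotensin receptor, was at 4.89, 4.48, 6.07 and 5.38 against 9.40 and 9.45, 18.6-fold lower. Of 17 nuclear receptors, 7 were lower and 1, Rorb, higher. Rorb was called on 1 of 3 probes, but not as their mean, without normal 2 or in the low-Xist tumors alone. Rxrg, a retinoid X receptor, was at 5.42, 5.60, 5.56 and 6.43 against 8.58 and 8.74, and Nr3c1 at 7.83, 8.49, 7.59 and 8.57 against 10.56 and 10.45, with all 4 of its probes called. Nr3c2, the mineralocorticoid receptor, fell by 2.01, and its call was lost without either normal sample, as were those of Esr1 and Nr4a1. Without 1 of the normal samples 3 or 4 nuclear receptors were called lower.

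**Figure D4:**
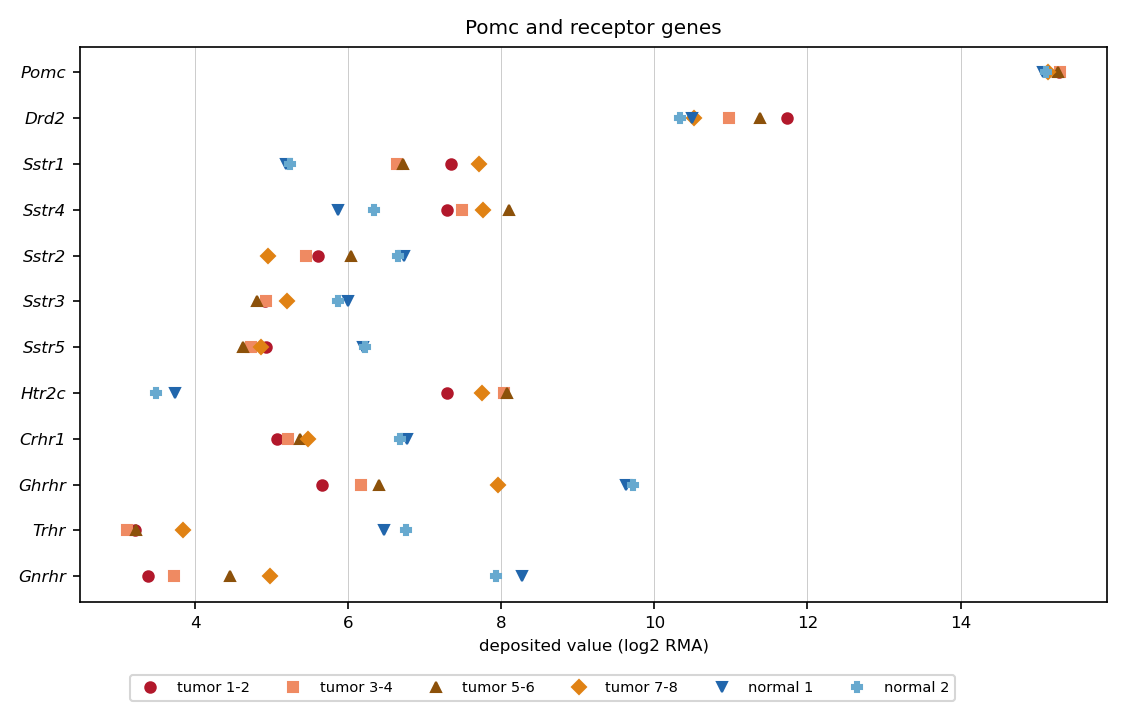
Deposited log2 values of Pomc and 11 receptor genes, 1 row per gene and 1 symbol per sample. Sstr1, Sstr4 and Htr2c lie higher in all 4 tumors, Ghrhr, Trhr, Gnrhr, Crhr1, Sstr2, Sstr3 and Sstr5 lie lower, and for Drd2 tumor 7-8 at 10.52 lies next to normal 1 at 10.49. Levels of different genes cannot be compared on this axis, since each probe binds with its own strength.

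Neuropeptide genes moved both ways. Of 22 on the array 10 were bright enough to be tested, of which 3 were higher and 4 lower. Vip, vasoactive intestinal peptide, was at 3.29, 3.54, 3.53 and 3.87 against 7.79 and 7.83, 19.1-fold lower (standard error 0.16, adjusted p = 9.23e-05), and Grp, gastrin-releasing peptide, at 3.96, 3.98, 4.36 and 4.33 against 6.80 and 7.23. The other decreases were Cartpt (-2.51), not called without either normal sample or tumor 5-6, and Nmu (-1.97). Pdyn, prodynorphin, was at 8.98, 8.31, 8.61 and 7.93 against 5.77 and 5.83, 6.30-fold higher, and Bdnf, the neurotrophin, rose by 1.5. Gal, galanin, rose by 1.64, a call lost without either normal sample, without tumor 3-4 or 5-6, with Xist in the model and in the low-Xist tumors alone. Avp and Oxt, the vasopressin and oxytocin genes of hypothalamic axons, were 7.90-fold and 6.46-fold lower. Avp was at 5.71, 5.92, 6.63 and 7.12 against 9.16 and 9.49, with tumor 7-8 again nearest to normal. Of 12 pituicyte and glial markers 4 fell, which were Slc1a3, Col25a1, Tbx3 (-1.70) and Aqp4 (-1.12, not called without either normal sample or tumor 1-2 or 5-6). Slc1a3, a glutamate transporter, was at 5.57, 5.71, 5.67 and 5.43 against 8.78 and 8.87, with 3 of 4 probes called, and Col25a1 fell by 3.07 on 1 of 2 probes. The fourth probe of Slc1a3 had a log2 fold change of -0.09 and the other of Col25a1 one of -0.11. Adm, adrenomedullin, is on this list and on that of hypoxia genes and rose by 2.62.

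Most genes of the secretory apparatus were not called, as held for all tested genes, of which 10.1% were called. Of 17 granins and granule proteins, Vgf (log2 fold change 1.87, not called without normal 2) and Chga (1.26) rose and Pcsk1n, an inhibitor of the prohormone convertase Pcsk1, fell by 1.49, with a median of 0.01. Chga, chromogranin A, was at 13.86, 13.94, 13.59 and 13.58 against 12.36 and 12.60. Pcsk1, the convertase that makes adrenocorticotropic hormone, had a log2 fold change of -0.97 (adjusted p = 0.00415), just under the 2-fold limit. Of 20 genes of exocytosis, Syt7, a calcium sensor, was lower (-1.37), a call lost without normal 1. Syt1, another calcium sensor, had a log2 fold change of 0.95 by its brightest probe and was not called, though 3 of its 4 probes were. Of 21 genes of protein folding in the endoplasmic reticulum, 0 were called (median 0.33) by limma, limma-trend or analysis of variance, though 8 had an unadjusted p under 0.05 from limma, and with the arrays taken as 10 separate samples 2 were called higher. Hspa5, the chaperone BiP, was at 13.86, 13.88, 14.15 and 13.89 against 13.76 and 13.78.

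Signalling pathways of pituitary development had genes called in both directions. In the WNT pathway 5 of 18 genes were lower, which were Fzd1, Fzd4, Fzd5, Fzd7 and Sfrp5, and 1 was higher. The first 4 are WNT receptors, and Fzd5 was at 5.88, 6.58, 7.05 and 6.67 against 9.26 and 8.76. Wnt5b, a ligand, was at 8.63, 8.06, 8.28 and 7.56 against 6.15 and 6.54, and was not called without normal 1. In the Notch and Hedgehog pathways 5 of 18 were lower and 3 higher. Smo, the Hedgehog signal transducer, fell by 1.96 and Gli2, a transcription factor of the pathway, fell by 2.17, while Gli3, another, was at 9.29, 9.69, 9.49 and 8.41 against 7.28 and 6.99, and was not called without normal 2. Notch1 and Notch2, receptors, fell by 1.04 and 1.56, and the ligand genes Dll3 and Jag2 rose by 1.82 and 1.15. Notch2 and Jag2 were not called without either normal sample, nor Notch1 without tumor 7-8. Notch1 and Jag2 were each called on 1 of 2 probes, and neither was called as the mean of its probes. Without 1 of the normal samples 0 or 1 genes of these pathways were called higher and 3 or 4 lower, and Dll3 was not called without either. Of 23 genes of FGF, EGF and IGF signalling, Fgfr1 (-1.66), Hbegf (-1.35), Igfbp4 (-1.01) and Igfbp5 (-2.73) were lower, Igfbp4 not without either normal sample or any tumor but 3-4. Fgfr4 was at 7.65, 7.57, 7.16 and 7.18 against 4.54 and 4.85, but 1 of its 3 probes was called and another had a log2 fold change of -0.03. Of 26 genes of the BMP, TGF-beta and activin pathway, 3 were higher and 3 lower. The target genes Id2 and Id3 rose by 2.52 and 1.40 (Id3 not without either normal sample or tumor 3-4), Smad6, an inhibitor within the cell, was at 4.21 to 4.26 in the tumors against 5.90 and 6.35, and Grem1, a secreted BMP antagonist, fell by 2.73. The ligand genes Tgfb1 (1.37) and Tgfb2 (-1.17) were the other 2 called, though not without either normal sample, nor Tgfb2 without tumor 1-2.

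Imprinted genes were lower or not called. Of 19 tested, 5 were lower and 0 higher (median -0.45). Dlk1, which encodes a membrane protein related to Notch ligands, was at 6.79, 8.46, 8.18 and 10.85 against 12.80 and 12.78, with the largest SD among the 4 tumors of any named gene called (1.68, as in Fshb). Mirg and Rian, noncoding RNAs of the same locus, fell by 1.72 and 1.25. Rian was called on 1 of its 4 probes, but not as their mean, nor without normal 2 or any tumor but 7-8. Meg3 of that locus had a log2 fold change of -0.61 by its brightest probe. Of 11 Meg3 probes, all were negative and 6 were called lower, at -1.09 to -2.03. Nnat, neuronatin, fell by 3.64 and Grb10, an adaptor of growth factor receptors, by 2.70. Dlk1 and Nnat are also markers of somatotrophs, and both lost their call without either normal sample. Without 1 of the normal samples 2 or 3 imprinted genes were called lower.

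Genes of low oxygen and of glycolysis were higher in part. Of 27 tested, 6 were higher and 0 lower (median 0.65), and 5 to 9 were without 1 sample. Egln3, an oxygen sensor that is itself induced by hypoxia, was at 9.31, 9.40, 9.72 and 8.73 against 5.98 and 6.16, 9.30-fold higher. Ldha, lactate dehydrogenase, was at 12.09, 11.82, 11.75 and 11.55 against 9.89 and 10.05, and Adm at 9.52, 10.40, 10.28 and 8.92 against 7.16 and 7.17. Of the 6, 5 were lowest in tumor 7-8. Car9, a carbonic anhydrase, was at 8.11 in tumor 3-4 and at 6.38 to 6.47 in the other tumors, against 4.41 and 4.89, and was not called without either normal sample. Pgk1, which is also on the list of housekeeping genes, rose by 1.05, a call lost without normal 1. Of 27 genes of the respiratory chain, 0 were called by limma, limma-trend or analysis of variance, with a median of 0.01 and log2 fold changes from -0.62 to 0.35. Of these, 5 had an unadjusted p under 0.05 from limma.

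Some proteases of the matrix rose, and a few matrix proteins were called in either direction. Of 18 matrix proteases and inhibitors, 6 were higher and 2 lower. Mmp3, stromelysin, was at 6.86, 7.12, 6.70 and 6.55 against 3.82 and 4.50, Mmp13, a collagenase, rose by 2.76, and Timp1, an inhibitor of both, by 1.79, while Adamts9 (-1.60) and Plat (-1.31), the tissue plasminogen activator, fell. Without 1 of the normal samples 3 or 5 genes of this list were called higher, and Timp1 was not without normal 1. Mmp3, Mmp12 and Mmp13 passed the filter through the tumors alone, with normal values under the median of all values. They could hardly be called lower, so the count of genes called higher is in part set by the filter. Of 25 basement membrane and collagen genes, 2 were higher and 3 lower, against 5.57% and 4.51% of all tested genes. Lama1, a laminin chain, was at 4.17, 4.23, 4.27 and 4.40 against 7.49 and 7.36, while Col4a5 fell by 1.49 and Nid2 by 1.17. Fn1, fibronectin, was at 10.13, 10.45, 9.53 and 8.43 against 6.52 and 7.23, and was not called without normal 1. Of 13 pericyte and fibroblast markers, Acta2, smooth muscle actin, rose by 1.74, and Dcn, Pdgfra and Lum, genes of fibroblasts, fell by 1.61, 1.48 and 1.41, the last 2 of which were not called without either normal sample, nor Lum without any tumor but 3-4. Of 10 endothelial markers, Tek, the angiopoietin receptor, fell by 1.42 and Esm1, also a melanotroph marker, rose, with a median of -0.19. The single erythrocyte marker tested, Alas2, ranged from 6.40 to 8.58 over the 6 samples and was not called.

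**Figure D5:**
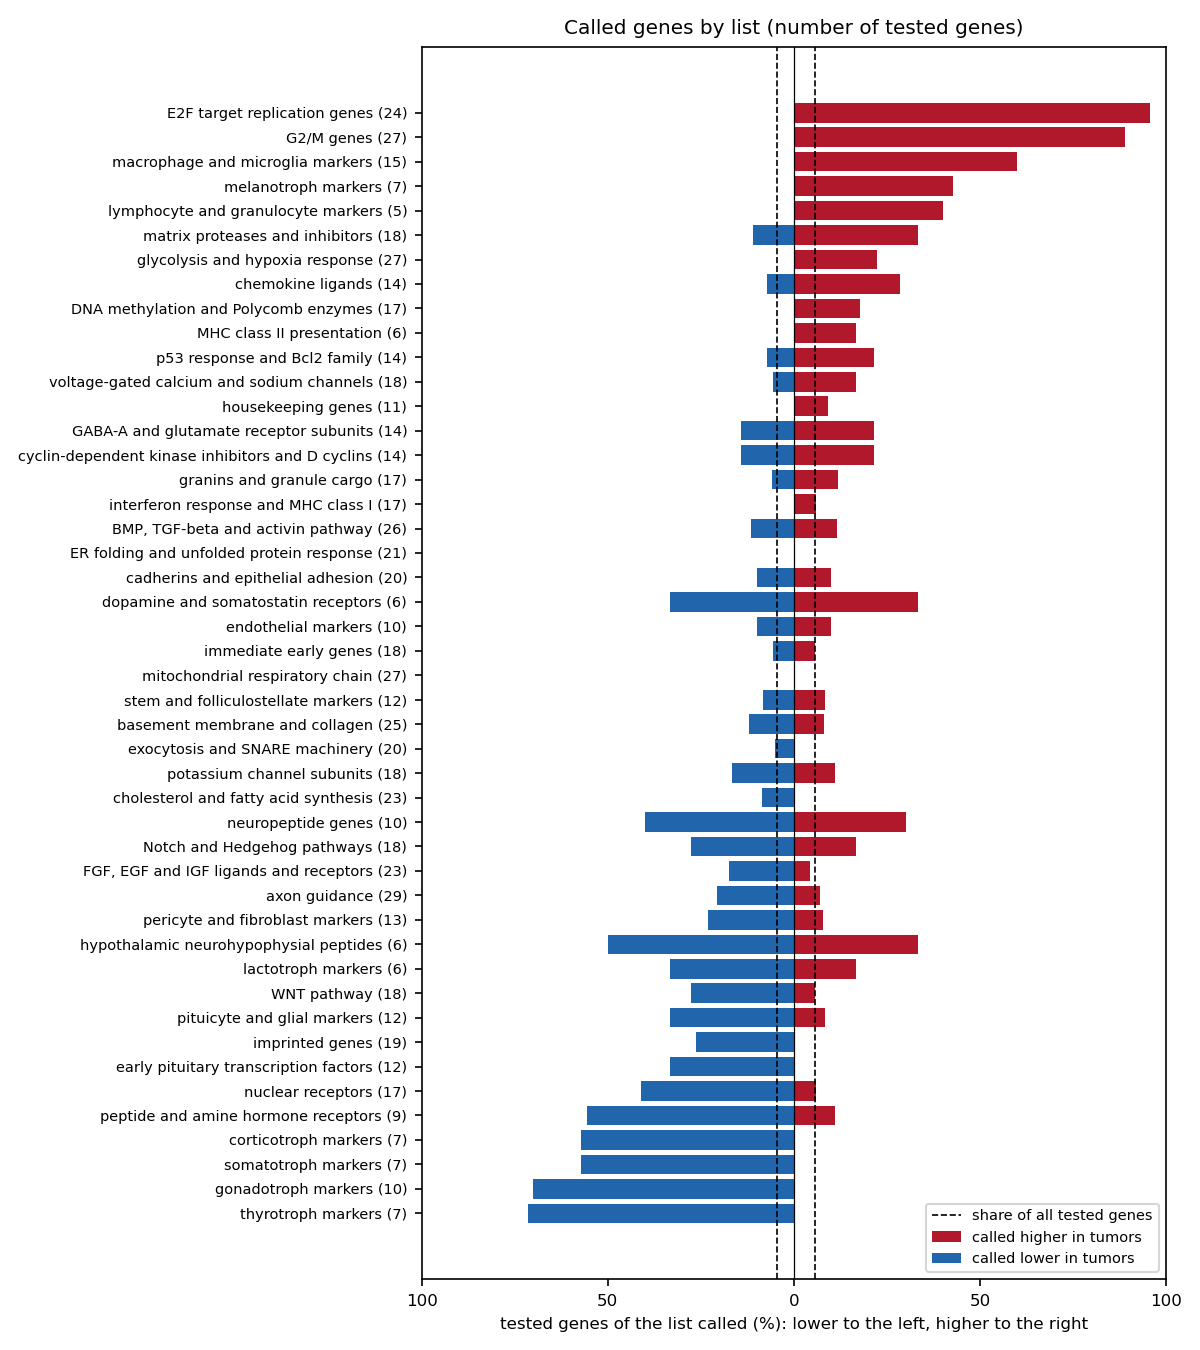
Percentage of the tested genes of each list called higher (right) or lower (left) in tumors, with the number of tested genes beside each name. Dashed lines mark the 5.57% of all tested genes called higher and the 4.51% called lower. Replication, G2/M and macrophage lists lie at the top, and thyrotroph and gonadotroph lists at the bottom.

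The largest SDs among tumors were in genes that fell. The SD among the 4 tumors had a median of 0.33 in genes called lower, 0.31 in genes called higher and 0.16 in all tested genes, and between the 2 normal samples it had a median of 0.098. An SD over 1 was found in 16 called genes that were lower and in 5 that were higher. After Dlk1, Fshb and Tshb, the largest were in Kcnk2, a potassium channel, which was at 5.20, 8.32, 6.50 and 7.97 against 10.43 and 10.16, in Asb4, which was at 5.64, 7.42, 6.38 and 8.73 against a normal mean of 10.16, and in Cyp2f2, a cytochrome P450, at 5.56, 8.02, 6.95 and 8.56 against 10.35 and 10.59. Mia, a secreted matrix protein, was at 6.11, 8.22, 7.70 and 9.08 against 11.00 and 11.20. Tumor 1-2 was the lowest in each of these 4 genes, and each lost its call without either normal sample (Kcnk2 and Asb4 also without tumor 5-6). The 2 highest in each were tumors 3-4 and 7-8, in which Xist was high. That was also so in Dlk1, but not in Fshb or Tshb. Whether this split goes with the sex of the mice was not tested. In the 684 genes called higher, tumor 3-4 was highest in 260 and tumor 1-2 in 250, and the median difference from normal pituitary was 1.63, 1.66, 1.43 and 1.35 in the 4 tumors.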

How the data were processed

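Total RNA of tumors and normal pituitary was hybridized to Affymetrix mouse expression arrays, from samples with an RNA integrity number over 7 according to the labels. The authors deposited log2 values made by Robust Multichip Average (RMA), for which the labels give Affymetrix Expression Console and the study's methods GeneSpring GX. RMA shrinks differences between dim probes, and array values have no read depth, so that the number of samples limits the precision. No scanner images, detection calls or dates of scanning entered the work.

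Of the 45101 probe sets, 64 controls were left out, 34945 named 1 gene in the platform annotation, 932 more than 1 and 9160 no gene. A probe was tested if 2 or more of the 10 arrays reached the overall median (5.73). A gene bright in 1 group alone could enter through that group, and could then hardly be called in the other direction. The 2 arrays of each tumor pair were averaged, and the groups were compared over all tested probes with limma's moderated test (version 3.58.1, R 4.3.3), which had 4 residual degrees of freedom. Calls required over 2-fold change together with a Benjamini-Hochberg adjusted p below 0.05, as in the study. The script was tested on simulated data. Alternatives were the arrays taken separately, with and without blocks, other filters, centring, normalization, covariates and tests, and each sample left out. Analysis of variance without moderation is the test the study's methods name. Promoters from RefSeq (GRCm38.p6) matched 9901 of the 12272 tested genes by symbol.

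The compared arrays and the 48 gene lists, with 820 of 885 genes found on the array, were chosen with earlier results of these data known. The named genes are Pomc, the 15 genes with the largest increases and the 15 with the largest decreases, up to 4 called genes of each list with the largest changes or the 2 brightest where fewer than 2 were called, the 8 called genes with the largest SD among tumors, every dopamine and somatostatin receptor and sex-linked genes. Other genes were named after their values were seen, among them Gh, Prl, Cga, Tbx19, Pcsk1, Csf1r, Cx3cr1, Dnmt1, Cdkn1b and the uncalled or smaller members that complete a list's count. Heterozygous and normal arrays share the numbers 1 and 2, but their deviations correlated at -0.111 and 0.104, so the numbers were not taken to pair them.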

Additional observations from a re-analysis of the deposited data

Results flagged for a closer look

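In 12 of 212 named genes 1 of the 4 tumors lay far from the other 3, by its gap to the nearest of them relative to the whole range. Chance gives about 1 in 20 (5%), and the count is near that share. The genes are listed as a description of their values only. Tumor 5-6 was set apart downward in Mcm6 (10.07), Chodl (7.00) and Ifit2 (7.44), and upward in Hspa5 (14.15). Tumor 7-8 was set apart downward in Lyz1 (11.53) and Id2 (9.64), and upward, toward normal pituitary, in Pcsk1n (10.48), Kcnd3 (8.10) and Trhr (3.84). Tumor 3-4 was the highest in Car9 (8.11), and tumor 1-2 the highest in Plk1 (7.53) and the lowest in Ccnd1 (8.12). Of these genes Hspa5 and Plk1 were not called between tumors and normal pituitary. Whether any of these tumors differed in its content of other cells was not tested.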

How the results depend on the processing

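The count of 2120 probes (1204 higher, 916 lower, 1237 genes) moved by over 1.5 times under 2 alternatives. By analysis of variance without moderation, 1232 probes were called, 691 higher and 541 lower, in 749 genes, and with the adjusted p alone and no fold limit 5425, 3042 higher and 2383 lower, in 2983 genes. Without 1 sample, 1565 (without normal 1) to 2319 (without tumor 7-8) probes and 854 to 1334 genes were called. With the 10 arrays taken separately 2197 probes were called, and with the replicate block added, pairing arrays by number, 2790 were. That block moved no count over all features by 1.5 times, and in lists it gave 10 glycolysis and hypoxia genes called higher. The remaining settings gave 1804 to 2419 probes. Of 176 named genes called, 0 turned sign, 54 lost their call without normal 1 and 52 without normal 2, 68 by analysis of variance (among them Fshb, Pappa2, Sstr1, Hmox1, Kit and Adm, which no left-out sample changed), 9 with the replicate block, and 14 or fewer in each other setting. Uncalled genes turned sign as follows. Xist was at -0.24 with the replicate block, -0.032 in the low-Xist tumors alone and 0 with itself as covariate, Sox2 at -0.11 with the replicate block, Cdkn1b at -0.26 as the mean of its probes, and Eif2s3y at 0.022 in the low-Xist tumors. Cox7a2 was at 0.013 in odd arrays and from -0.055 (without normal 1) to 0.037 (without normal 2) with 1 sample left out. Foxm1 was at -0.011 in odd arrays, -0.041 with quantile normalization repeated and -0.071 (without tumor 1-2) to 0.0504 (without normal 1) with 1 sample left out. The cause of these shifts was not tested. The spread of normal pituitary rests on 2 samples, and changes from or to levels under the median are not exact in size.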

Other observations

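Ion channels and neurotransmitter receptors, which set the electrical activity of melanotrophs, had members called in both directions. Of 14 GABA-A and glutamate receptor subunits, 3 were higher and 2 lower. Gabrg1 rose by 1.23, a call lost without either normal sample or tumor 1-2. Gabra3, an alpha subunit of the GABA-A receptor, was at 7.25, 6.97, 7.26 and 7.48 in the tumors against 3.90 and 4.15 in normal pituitary, 9.27-fold higher (standard error 0.16 on the log2 scale, adjusted p = 0.000172 from limma). Among subunits of the AMPA receptor, Gria2 rose by 1.30, whereas Gria1 (-1.94) and Gria4 (-1.52) fell, and neither decrease was called without either normal sample, nor Gria4 without tumor 1-2 or 3-4. Of 18 calcium and sodium channel genes, Cacna1h, a low-threshold calcium channel, was at 3.90, 4.02, 3.94 and 4.41 against 6.28 and 6.29, while Scn3b, a sodium channel subunit, rose by 1.45. Cacna1a (1.04 on 1 of 3 probes, not called without normal 2 or tumor 1-2) and Cacna2d3 (1.09, not called without either normal sample or any tumor but 1-2) were the other increases. Cacna2d3 also lost its call with Xist in the model and in the low-Xist tumors alone. Of 18 potassium channel genes, Kcnc1 rose by 1.82 on 2 of 4 probes, Kcnh1 by 1.13, and Kcnn2, Kcnd3 and Kcnk2 fell by 1.60, 1.55 and 3.29. Kcnk2 was not called without either normal sample or tumor 5-6, nor Kcnd3 without normal 1.

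Genes of guidance and adhesion also moved in both directions. Of 29 axon guidance genes, 2 were higher and 6 lower. Ntn1, the ligand netrin, was at 9.77, 9.30, 9.68 and 8.84 against 6.90 and 7.17, and Dcc, its receptor, rose by 1.26 but not without normal 2, whereas Unc5c, another netrin receptor, fell by 1.57 and was not called without normal 1. Epha7, an ephrin receptor, was at 3.26, 3.78, 4.20 and 5.02 against 6.97 and 6.58, and its call too was lost without normal 1. Of 20 cadherin and adhesion genes, Cdh10 was at 7.62, 7.72, 7.44 and 7.65 against 5.33 and 5.70, Cdh13 rose by 1.04, and the tight junction genes Cldn9 and Cldn10 fell by 1.11 and 2.45. Cdh13 and Cldn10 were not called without either normal sample, nor Cdh13 without tumor 1-2 or 5-6. Of 12 early pituitary transcription factors, Neurod1, Gli2, Isl1 and Msx1 were lower and 0 were higher. Isl1 was not called without either normal sample, nor Msx1 without normal 2, and Sox2, a stem cell factor, had a log2 fold change of 0.26 and was not called. Of 12 stem and folliculostellate markers, Anxa1 rose by 1.80 and Ednrb fell by 2.18. Of 23 genes of cholesterol and fatty acid synthesis, Scd1 and Elovl6, which modify fatty acids, fell by 1.66 and 1.25. Of 18 immediate early genes, Ier3 rose by 1.56 and Nr4a1 fell, and neither was called without normal 1, nor Nr4a1 without normal 2 or tumor 3-4. Of 11 housekeeping genes, Pgk1 was the 1 called, though not without normal 1. In the fatty acid and cholesterol, immediate early and housekeeping lists the share called was near the 10.1% of all tested genes.

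The difference from normal pituitary was also placed by chromosome, an analysis added after the data were seen. Over the 12246 genes on the autosomes and the X chromosome, the median difference of a chromosome in a tumor ran from -0.13 (chromosome 13) to 0.07 (chromosome 19) on the log2 scale. Genes were called at shares from 7.51% on chromosome 17 to 14.6% on chromosome 1. Whether the tumors had gained or lost chromosomes was not tested.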
